A study of Drosophila melanogaster with 6 samples.

Results

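The 32 genes described here encode neuropeptides, peptide hormones and insulin-like peptides of the Drosophila head. They were taken by name from a list and matched to their FlyBase identifiers among the 17509 genes in the count files, and all 32 were found. RNA was sequenced from whole heads of vitamin A deprived flies (3 libraries) and of vitamin A replete flies (3 libraries). Both groups were 4-day-old females of the wild-type strain Canton S, reared on minimal food at 25 °C and 50% relative humidity, and the diets differed in that beta-carotene was left out for the deprived flies and added for the replete flies. Beta-carotene is the dietary source from which flies make vitamin A. No transgene or mutation was used. A head sample holds brain, eyes, fat body and muscle together, so the level of a peptide made by a few cells is diluted, and fewer peptide cells cannot be told apart from less RNA per cell.

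Neuropeptides are cut from larger precursor proteins, usually amidated, stored in dense-core vesicles and released to act on G protein-coupled receptors. Insulin-like peptides of the fly brain come from a small group of median neurosecretory cells, the insulin-producing cells, and act on the receptor tyrosine kinase InR. In adult flies these peptides are best known for their part in feeding, metabolism, water balance, sleep and daily rhythms. Many of the same genes are also used by endocrine cells of the gut, which a head sample should lack.

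Total counts ran from 21344395 to 24165187 in the deprived libraries and from 15668307 to 17935321 in the replete libraries, so every deprived library was deeper. CPM is the count scaled to library size. A count of 3, taken as the limit that a count of 0 allows, corresponds to 0.124 to 0.191 CPM by raw library totals. This limit covers counting error only. Neuronal markers (8 genes, among them elav and nSyb) summed to 5571 to 5871 CPM in deprived libraries and 5385 to 5508 CPM in replete libraries. Every deprived sum thus lay above every replete sum. The log2 fold change, deprived over replete, was positive for all 8 (median 0.07) and for all 4 photoreceptor markers (median 0.10). Of these markers 0 were called by the test below, and their part in the peptide levels was not tested. Of 9 midgut markers, deltaTry, thetaTry and lambdaTry had 0 counts in every library, while betaTry and alphaTry had counts only in replete library 2 (14 and 24). Summed, the 9 markers were at 76.1 to 107 CPM in deprived and 73.1 to 73.9 CPM in replete libraries, nearly all of it from Amy-p. The abdominal Hox genes abd-A and Abd-B were also highest in replete library 2, at 40 and 26 counts, against 0 to 6 counts each in the other libraries. Summed oocyte markers ran from 117 to 175 CPM in deprived and from 93.6 to 211 CPM in replete libraries, most of it from orb. The oocyte gene osk had 181, 449 and 145 counts in deprived and 643, 317 and 0 counts in replete libraries, and vas and nanos were likewise highest in replete library 1 and at 0 counts in replete library 3. Nothing in the labels says that the libraries of a group came from separate batches of flies, so a p-value here speaks only of the spread among these 6 samples, part of which can be technical. The library codes differ in their leading digit between the diets, and a batch that followed them cannot be told apart from diet.

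None of the peptide genes passed the test for a difference between deprived and replete heads. Of the 32 genes, 28 had enough counts to be tested, and 0 were called higher and 0 lower in deprived heads (edgeR quasi-likelihood test, called where the p adjusted over all genes by Benjamini-Hochberg, BH, was under 0.05). Among all 10896 genes tested, 0.294% were called higher and 0.0367% lower, or 0.33% in either direction, so no call among 28 genes is near that background. At an unadjusted p under 0.05, 1 of the 28 (3.57%) was higher and 0 were lower, where 2.72% of all genes were higher and 2.41% lower past that threshold. DESeq2 and limma-voom also called 0 of the peptide genes, with 0 and 1 at an unadjusted p under 0.05. The fitted log2 fold changes, deprived over replete, were positive for 14 and negative for 14, with a median of 0.0029 beside -0.0089 over all genes tested. The size of the log2 fold change had a median of 0.10 over the 28 genes.

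The intervals around these differences show how large a change could have gone unseen. For 26 of the 28 genes the 95% interval of the fold change lay within 2-fold in both directions, for 17 within 1.5-fold and for 3 (Proc, Dh31 and Nplp1) within 1.2-fold. Intervals that reached past 2-fold belonged to Gpb5 and Gpa2, which are among the least abundant. Those that reached past 1.5-fold but not 2-fold belonged to Ilp5, NPF, Crz, Capa, Trissin, SIFa, Ilp3, FMRFa and CCHa1. These intervals are per gene and not adjusted for the number of genes.

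**Figure D1:**
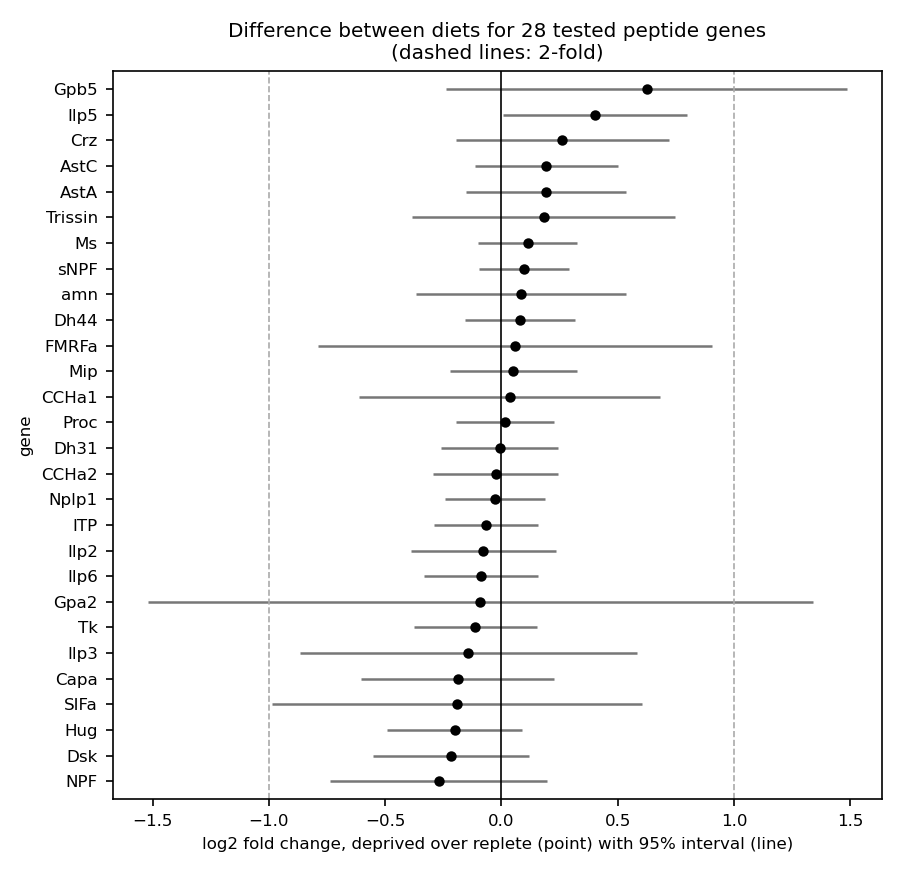
Log2 fold change, deprived over replete (x axis), for each of the 28 tested peptide genes (y axis, from most positive to most negative); points are the fitted value and lines the 95% interval, and dashed lines mark 2-fold. All intervals but that of Ilp5 include 0, and those of Gpb5 and Gpa2 reach past 2-fold.

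The peptide genes differed far more from each other than between diets. Scaled to the length of their exons, mean levels over the 6 libraries ran from 151 CPM per kilobase for CCHa2 to 0.0725 CPM per kilobase for RYa. CCHa2, a nutrient-responsive peptide made in fat body and gut that acts on insulin-producing cells in larvae, stood apart from the rest at 123 to 179 CPM per kilobase. Next came Ms at 48.5 to 58.1, Ilp2 at 41.7 to 59.5, sNPF at 43.0 to 50.6 and AstC at 29.5 to 44.4 CPM per kilobase. In the order of mean levels per kilobase, 30 of the 31 pairs of neighbours had overlapping ranges over the 6 libraries, and the exception was CCHa2 above Ms. As far as the spread among libraries goes, the order is therefore firm between distant genes and not between neighbours. The order also rests on exonic lengths from an annotation that may differ from the one used for counting. By CPM without regard to length, CCHa2, sNPF and ITP led the 32 genes, and together they made up 39.9% of the summed CPM of the 32 genes. In all, 20 genes had a mean of at least 10 CPM and 5 were under 1 CPM.

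**Figure D2:**
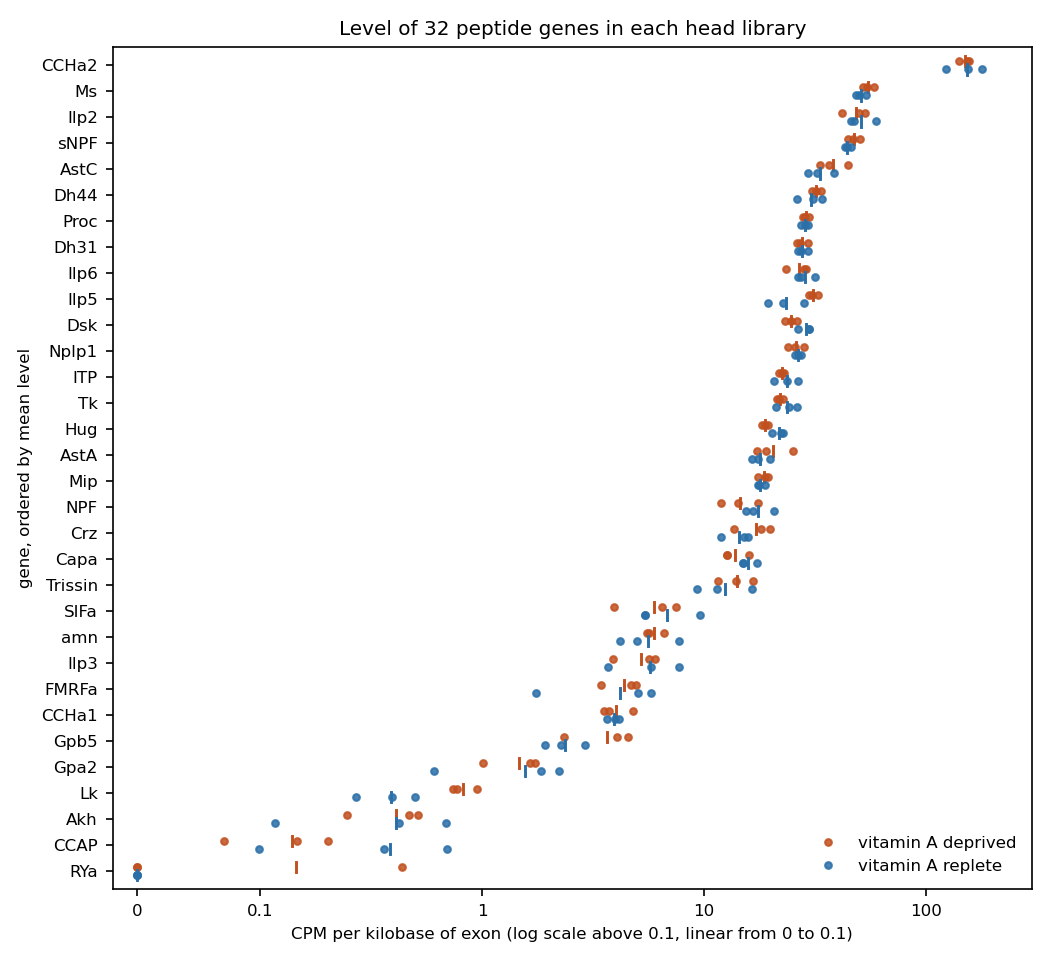
Level of each of the 32 peptide genes (y axis, ordered by mean) in CPM per kilobase of exon (x axis, logarithmic above 0.1 and linear below); points are libraries, ticks are group means, and the upper row of each gene is the deprived group. The level spans from 151 CPM per kilobase for CCHa2 to 0.0725 CPM per kilobase for RYa, and the groups overlap for all genes but Ilp5, Dsk, Hug and Lk.

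Insulin-like peptides were led by Ilp2 per kilobase of exon. Ilp2, the best-studied insulin of the brain cells, was at 35.5, 28 and 33.5 CPM in deprived libraries 1 to 3, against 31.8, 39.9 and 30.6 CPM in replete libraries 1 to 3. The groups overlapped, with the highest and the lowest value in replete library 2 and deprived library 2, and the log2 fold change was -0.08 ± 0.14 (SE, 95% interval -0.39 to 0.24).

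Ilp5, which is made in the same cells and in larvae depends on nutrition for its expression, was at 15.6, 14.7 and 14.1 CPM in deprived libraries, against 9.30, 10.8 and 13.4 CPM in replete libraries. Every deprived value lay above every replete value, although replete library 3, at 13.4 CPM, came close to the lowest deprived library at 14.1 CPM. The means were 14.8 ± 0.731 CPM in deprived heads and 11.2 ± 2.08 CPM in replete heads (SD, n = 3 each), a fitted log2 fold change of 0.40 ± 0.18 (SE, 95% interval 0.0061 to 0.80). This was the smallest p of the 28 genes, and it missed the threshold (BH-adjusted p = 0.968, edgeR). In the fits that leave out 1 library, its log2 fold change ran from 0.29 to 0.55.

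Ilp3, the third insulin of these cells, was at 4.5, 4.25 and 2.92 CPM in deprived libraries, against 4.34, 5.76 and 2.77 CPM in replete libraries. Its groups overlapped widely (log2 fold change -0.14, 95% interval -0.87 to 0.58). Within a library, Ilp5 had 0.439, 0.525 and 0.421 counts per Ilp2 count in deprived heads, and 0.292, 0.272 and 0.439 in replete heads. Replete library 3 thus lay inside the deprived range of this ratio. Ilp3 had 0.127, 0.152 and 0.0873 counts per Ilp2 count in deprived heads and 0.137, 0.145 and 0.0905 in replete heads, which overlapped. The annotation of assembly BDGP6.54 places the genes Ilp1 to Ilp5 (5 genes) within 25478 bases of chromosome 3L, from 9798420 to 9823897, with Ilp2 on the plus strand and Ilp3 and Ilp5 on the minus strand.

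Ilp6, an insulin-like growth factor relative made chiefly by the fat body, lies apart from these on the X chromosome. It was at 69.1, 56.4 and 67.7 CPM in deprived libraries, against 63.8, 65.7 and 75.9 CPM in replete libraries. These values overlapped, and the log2 fold change was -0.09 (95% interval -0.34 to 0.16). Of the 4 insulin-like genes, Ilp5 alone had a positive log2 fold change, and whether it differed from the other 3 was not tested.

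**Figure D3:**
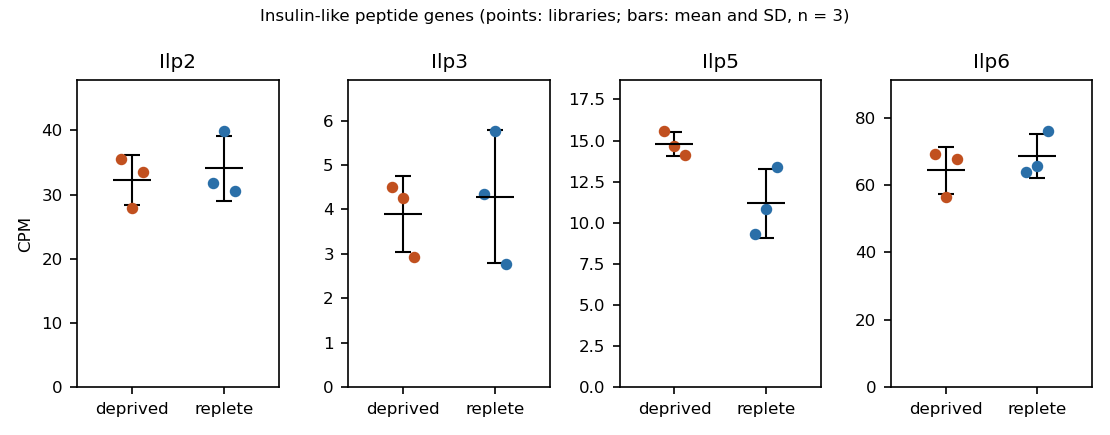
CPM (y axis, from 0) of Ilp2, Ilp3, Ilp5 and Ilp6 in deprived and replete libraries (x axis); points are libraries and bars the mean and SD of 3. The deprived values of Ilp5 lie at 14.1 to 15.6 CPM and its replete values at 9.30 to 13.4 CPM, while the groups of the other genes overlap.

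The most abundant of the 32 genes, CCHa2, was at 228, 205 and 223 CPM in deprived libraries, against 226, 261 and 180 CPM in replete libraries. The replete libraries held both the highest and the lowest value, and the log2 fold change was -0.02 (95% interval -0.29 to 0.24). Summed fat body markers, among them the yolk protein genes, were at 107700, 91130 and 112200 CPM in deprived libraries and 92240, 110400 and 110400 CPM in replete libraries. The log2 fold change was positive for 3 of the 6 markers and negative for 3, with a median of 0.0076. The negative ones were Yp1 (-0.06), Yp2 (-0.09) and FASN1 (-0.18). Of the 6 markers, Lsp2, a larval serum protein gene also active in adult fat body, was called higher. It was at 1120, 916 and 1213 CPM in deprived libraries, against 649, 734 and 540.3 CPM in replete libraries (log2 fold change 0.76; edgeR, BH-adjusted p = 0.0373). A gene on the opposite strand, asRNA:CR11538, covers 84.6% of the Lsp2 exons, and whether counting used strand is not given in the sources used here. Fbp1, another fat body gene, was at 15.9, 15.7 and 19.9 CPM in deprived libraries, against 9.74, 13.2 and 14.3 CPM in replete libraries. The Fbp1 groups did not overlap, and it was not called (log2 fold change 0.47; edgeR, BH-adjusted p = 0.890). The part of these fat body transcripts in the levels of CCHa2 and Ilp6 was not tested. A relative of CCHa2, CCHa1, made in gut and brain, was far lower, at 3.43 ± 0.579 CPM in deprived heads and 3.35 ± 0.200 CPM in replete heads (SD, n = 3 each).

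Of the peptides known for feeding, sNPF, a short peptide that stimulates feeding and tunes odour responses, was at 123.7, 115 and 108.4 CPM in deprived libraries, against 107, 105 and 112 CPM in replete libraries. The groups overlapped by 1 library, replete library 3, and the interval of the log2 fold change ran from -0.10 to 0.29. NPF, the fly relative of neuropeptide Y, was at 8.53, 7.13 and 10.5 CPM in deprived and 9.24, 9.94 and 12.4 CPM in replete libraries. It had the most negative log2 fold change of the 28 genes at -0.27 (95% interval -0.74 to 0.20), with overlapping groups (edgeR, BH-adjusted p = 0.999).

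AstA, an allatostatin that lowers feeding and favours sleep, was at 36.8, 27.6 and 25.2 CPM in deprived and 25.6, 28.9 and 24 CPM in replete libraries. Deprived library 1 stood above the other 5. Dsk, the cholecystokinin-like satiety peptide that the insulin-producing cells also make, was at 14.9, 13.1 and 14.0 CPM in deprived libraries, against 16.9, 16.9 and 15.0 CPM in replete libraries. All deprived values were below all replete values, by a narrow margin, and the log2 fold change was -0.22 (95% interval -0.55 to 0.12).

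Hug, whose pyrokinin peptides come from neurons of the suboesophageal zone that link taste and feeding, was at 20.03, 18.9 and 19.4 CPM in deprived libraries, against 22.8, 23.4 and 20.8 CPM in replete libraries. Its groups also did not overlap, with a log2 fold change of -0.20 (95% interval -0.49 to 0.09). With Ilp5, these made 3 of 28 tested genes (10.7%) whose groups did not overlap, beside 10.9% of all genes tested, which is no more than the background. Ilp5 was the 1 gene of the 28 (3.57%) with deprived values above, beside 5.86% of all genes, and Dsk and Hug the 2 (7.14%) with replete values above, beside 5.02% of all genes.

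Tested peptides of water balance and of the stress axis overlapped between the diets. Dh44, the relative of corticotropin-releasing factor made in median neurosecretory cells, was at 76.5, 80.6 and 73.6 CPM in deprived and 63.0, 81.3 and 73.9 CPM in replete libraries. Dh31, a calcitonin-like diuretic and wake-promoting peptide, was at 35.6 ± 2.28 CPM in deprived heads and 35.8 ± 2.05 CPM in replete heads (SD, n = 3 each). ITP, an ion transport peptide that limits water loss and is also made in clock neurons, was at 105, 108 and 102 CPM in deprived and 96.2, 123 and 111 CPM in replete libraries. For Dh44, Dh31 and ITP the 95% intervals lay within 1.5-fold either way. Capa, the source of periviscerokinins that act on the renal tubules, was at 9.56 ± 1.35 CPM in deprived heads and 10.9 ± 0.936 CPM in replete heads. Crz, a corazonin peptide linked to stress and metabolism, was at 11.8, 8.86 and 12.9 CPM in deprived and 7.82, 10.3 and 9.91 CPM in replete libraries. The Crz groups overlapped, since deprived library 2 lay below 2 of the replete libraries.

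Gpa2 and Gpb5 encode the subunits of a glycoprotein hormone that acts on the receptor Lgr1, and both were scarce. Gpb5 was at 1.79, 3.47 and 3.09 CPM in deprived libraries, against 1.74, 1.47 and 2.22 CPM in replete libraries. It had the most positive log2 fold change of the 28 genes, 0.62, but deprived library 1 lay inside the replete range and the 95% interval ran from -0.24 to 1.49. Gpa2 had 16, 9 and 16 counts in deprived and 12, 16 and 4 counts in replete libraries, with an interval from -1.52 to 1.34. The subunits did not keep a constant ratio, with 2.56, 8.44 and 4.63 Gpb5 counts per Gpa2 count in deprived and 2.33, 1.63 and 9 in replete libraries, where the Gpa2 counts were only 4 to 16. The annotation places Gpa2 on an unmapped scaffold.

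Proc, the muscle-stimulating peptide proctolin, was at 58.4, 56.0 and 55.2 CPM in deprived and 58.2, 53.7 and 56.2 CPM in replete libraries. Its highest library was only 1.09 times its lowest, the smallest ratio of the 32 genes. Mip, a myoinhibitory peptide that binds the receptor SPR, was at 25.9 ± 1.43 CPM in deprived heads and 25.0 ± 0.952 CPM in replete heads (SD, n = 3 each). Ms, the myosuppressin that relaxes gut and heart muscle, was at 64.0, 68.4 and 61.5 CPM in deprived and 57.1, 59.0 and 63.3 CPM in replete libraries. Ms overlapped through replete library 3, with a log2 fold change of 0.11 (95% interval -0.10 to 0.33).

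Among the remaining brain peptides, AstC, a somatostatin-like allatostatin, was at 44.1, 53.4 and 40.0 CPM in deprived and 35.4, 46.2 and 38.7 CPM in replete libraries. Tk, the tachykinin precursor that modulates odour sensing and aggression, was at 35.6 ± 1.18 CPM in deprived heads and 38.4 ± 4.26 CPM in replete heads (SD, n = 3 each). Nplp1, a neuropeptide-like precursor, was at 70.2 ± 5.95 CPM in deprived heads and 71.5 ± 1.97 CPM in replete heads. The groups of all 3 overlapped. Trissin, a cysteine-rich peptide, was at 7.70, 9.14 and 6.35 CPM in deprived and 5.09, 9.03 and 6.28 CPM in replete libraries. SIFa, made in very few neurons of the pars intercerebralis and tied to courtship and appetite, was at 3.94, 2.06 and 3.38 CPM in deprived and 2.85, 5.03 and 2.83 CPM in replete libraries. Its spread was wide and its interval ran from -0.99 to 0.60. Exons of Start1 on the opposite strand cover 21.1% of the SIFa exons, and whether counting used strand is not given in the sources used here.

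The memory and sleep gene amn was at 21.8, 22.3 and 26.1 CPM in deprived and 19.7, 16.4 and 30.3 CPM in replete libraries. FMRFa, the precursor of FMRFamide-type peptides, was at 4.90, 7.04 and 6.68 CPM in deprived and 7.19, 2.48 and 8.25 CPM in replete libraries. For both genes, replete library 2 was the lowest of the 6 and replete library 3 the highest. Without replete library 2 the log2 fold change was -0.32 for FMRFa and -0.09 for amn, and without replete library 3 it was 0.36 for FMRFa and 0.38 for amn. With all 6 libraries it was 0.06 for FMRFa and 0.08 for amn, and no fit called either gene.

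The other 4 genes, Lk, Akh, CCAP and RYa, had too few counts to be tested. Lk, the diuretic leucokinin, had 11, 13 and 11 counts in deprived and 5, 3 and 4 counts in replete libraries. In CPM its groups did not overlap, at 0.512 ± 0.0722 CPM in deprived heads and 0.242 ± 0.0705 CPM in replete heads (SD, n = 3 each), but a gene on the opposite strand, asRNA:CR44843, covers 93.0% of its exons. In a fit with no filter on low counts it did not pass (edgeR, BH-adjusted p = 0.965). Akh, the glucagon-like hormone of the corpora cardiaca, glands outside the head capsule, had 3, 6 and 6 counts in deprived and 1, 4 and 6 counts in replete libraries. CCAP, a cardioactive peptide also used in moulting, had 2, 4 and 6 counts in deprived and 14, 8 and 2 counts in replete libraries. RYa had 0, 4 and 0 counts in deprived and 0 in each replete library. By raw library totals, that allows up to 0.191 CPM in a replete library. These counts are close to the limit of detection at this depth.

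Between libraries, the peptide genes at their median varied somewhat less than all genes tested, and the sets were not matched for level. Within groups the median coefficient of variation of the 28 genes was 10.4% in deprived and 12.5% in replete heads, beside 11.7% and 16.3% over all genes tested. Replete library 2 was the highest library for 11 of the 28 genes (39.3%), where it was the highest for 23.1% of all genes tested. Those 11 were CCHa2, Ilp2, Dh44, Dsk, ITP, Tk, Hug, Capa, SIFa, Ilp3 and Gpa2. The same library was the lowest for sNPF, Proc, amn, FMRFa and Gpb5. It also held the midgut and abdominal transcripts named above, and their part in its peptide levels was not tested. Replete library 1 was the highest for 0 of the 28, where it was the highest for 15.5% of all genes tested. It was the lowest for 7 of the 28, and the share of all genes was not computed. Without replete library 2, the count of peptide genes called remained 0.

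**Figure D4:**
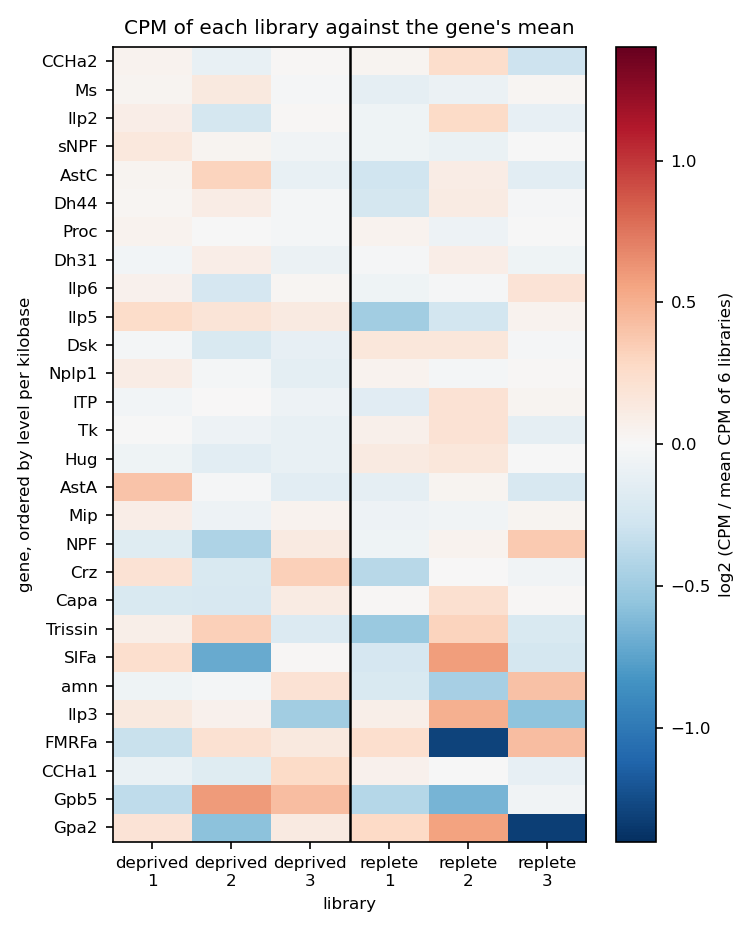
Log2 ratio of each library's CPM (columns, deprived left of the line and replete right) to the mean of the 6 libraries, for the 28 tested peptide genes (rows, by level per kilobase). Replete library 2 is highest for 11 genes, and only Ilp5, Dsk and Hug have groups that do not overlap.

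Of 104 other genes of the peptide pathway, in 5 lists, 98 were tested and 0 were called higher and 0 lower by edgeR. At an unadjusted p under 0.05, 3 of the 98 were higher and 1 lower, where 2.72% of all genes were higher and 2.41% lower. Groups did not overlap for 7 of the 98 with deprived values above, beside 5.86% of all genes. They did not overlap for 3 with replete values above, beside 5.02% of all genes. By DESeq2 there was a call for 1 of them, Orcokinin, as higher, and by limma-voom for 0. Over all genes, DESeq2 called 79 of the 14562 in its fit, in either direction. The median log2 fold change of the 98 was 0.00024, beside -0.0089 over all genes.

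All 40 listed receptor genes were tested and 0 were called, with 0 at an unadjusted p under 0.05 in either direction and a median log2 fold change of 0.05. Per kilobase, Pdfr, the receptor of the clock peptide PDF, led at 20.2, followed by AkhR, the receptor of Akh, at 17 CPM per kilobase. The smallest p among receptors belonged to sNPF-R, at 58.8, 56.5 and 57.7 CPM in deprived libraries against 50.7, 50.5 and 49.4 CPM in replete libraries. Its groups were tight and did not overlap, and its log2 fold change of 0.20 (95% interval -0.0090 to 0.41) missed the threshold (BH-adjusted p = 0.987, edgeR). InR, the insulin receptor, was at 158, 203 and 170 CPM in deprived libraries and 161, 153 and 149 CPM in replete libraries, which overlapped. Of 19 insulin signalling genes, InR among them, 0 were called, and the median log2 fold change was 0.0029. The gene chico, the insulin receptor substrate, was at 53.2, 64.4 and 52.9 CPM in deprived and 45.1, 44.2 and 45.9 CPM in replete libraries (log2 fold change 0.33; edgeR, BH-adjusted p = 0.588), and its groups did not overlap. Thor, a translation repressor induced when insulin signalling is low, was at 121 ± 11.2 CPM in deprived heads and 123 ± 40.1 CPM in replete heads (SD, n = 3 each), and Pdk1, a kinase of the pathway, at 320 ± 31.6 CPM in deprived heads and 352 ± 34.4 CPM in replete heads.

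Of 22 genes for peptide processing, vesicle release and breakdown, 0 were called, with a median log2 fold change of -0.011. The most abundant per kilobase were IA-2, a dense-core vesicle protein, at 383, and 7B2, the partner of the precursor-cutting convertase, at 92.2 CPM per kilobase. The convertase gene amon was at 251 ± 12.1 CPM in deprived heads and 253 ± 5.01 CPM in replete heads, and the amidating enzyme gene Phm at 97.4 ± 9.91 CPM in deprived heads and 100 ± 10.3 CPM in replete heads (SD, n = 3 each). With the peptide cell factor dimm, these summed to 333 to 365 CPM in deprived libraries and 350 to 360 CPM in replete libraries. Sytbeta, a synaptotagmin, was at 41.3 ± 1.61 CPM in deprived heads and 31.3 ± 3.99 CPM in replete heads, and Syt7, another calcium sensor, at 158 ± 8.06 CPM in deprived heads and 139 ± 11.0 CPM in replete heads. Neither passed (edgeR, BH-adjusted p = 0.505 and 0.988).

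The 7 genes for signals that reach the insulin-producing cells all had negative log2 fold changes, with a median of -0.21, while 0 were called and 0 were past an unadjusted p under 0.05 (52% of all genes tested were negative). Examples were egr, a tumour necrosis factor relative, at 17.4 ± 0.865 CPM in deprived heads and 22.5 ± 5.46 CPM in replete heads, and Gbp1, a growth-blocking peptide, at 9.24 ± 0.824 CPM in deprived heads and 11.2 ± 3.59 CPM in replete heads (SD, n = 3 each). Gbp2 was at 210 ± 24.8 CPM in deprived heads and 220 ± 19.5 CPM in replete heads. The gene sun encodes a subunit of ATP synthase that the fat body also secretes. It was at 108 ± 12.3 CPM in deprived heads and 125.6 ± 51.6 CPM in replete heads. Replete library 2 was the highest of the 6 libraries for egr, Gbp1, Gbp2, sun and Lst, and not for daw and upd2. In replete libraries 1 to 3, sun was at 99.1, 185 and 92.7 CPM and Gbp1 at 9.24, 15.3 and 8.92 CPM. The part of replete library 2 in the shared sign was not tested.

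A further 18 peptide genes outside the 32 included Orcokinin, which had the smallest p of the 98 pathway genes. This peptide gene of brain and gut was at 24.6, 17.3 and 21.9 CPM in deprived libraries, against 13.3, 13.3 and 12.6 CPM in replete libraries. The groups did not overlap, and the log2 fold change was 0.71 (95% interval 0.34 to 1.07; edgeR, BH-adjusted p = 0.184). DESeq2 called it, at a BH-adjusted p of 0.0488. Pdf, the output peptide of the clock neurons, was at 6.39, 5.21 and 6.10 CPM in deprived libraries, against 9.86, 11.2 and 7.63 CPM in replete libraries. These groups also did not overlap (log2 fold change -0.70, 95% interval -1.18 to -0.21; edgeR, BH-adjusted p = 0.549). Of these 18 genes, 12 were tested and none passed in edgeR. At an unadjusted p under 0.05, 1 was higher and 1 lower, beside 2.72% and 2.41% of all genes. Groups did not overlap for 1 with deprived values above and 1 with replete values above, beside 5.86% and 5.02% of all genes. Nplp3 at 692 and Lst, the decretin limostatin, at 53.0 CPM per kilobase were the most abundant.

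**Figure D5:**
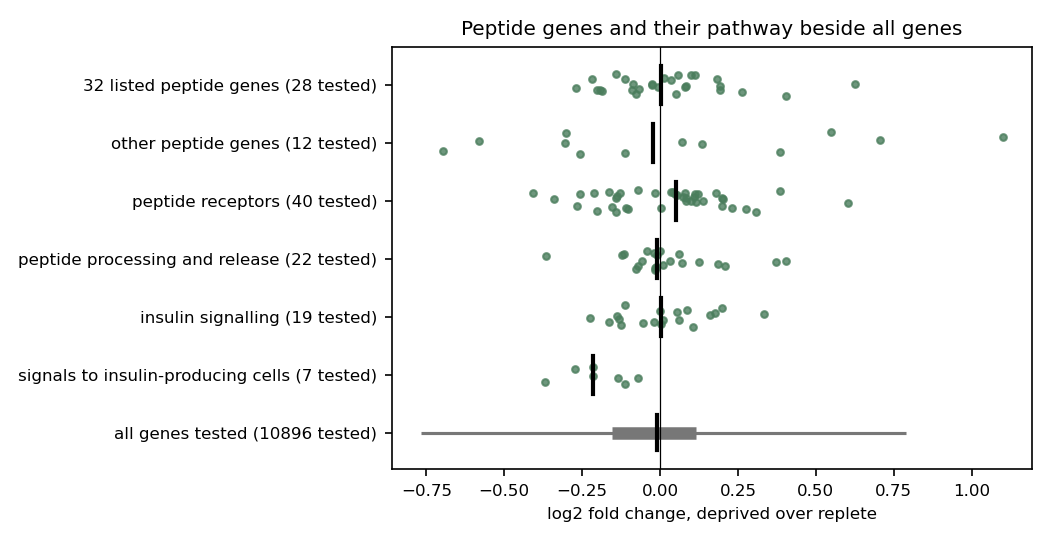
Log2 fold change, deprived over replete (x axis), of the tested genes in each list (y axis); points are genes and black ticks medians, and for all 10896 genes tested the thick bar spans the middle 50% and the thin line the middle 95%. The listed peptide genes centre on 0.0029 and all genes on -0.0089.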

How the data were processed

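Total RNA of whole heads was sequenced, 3 libraries per diet. Per the submitters' processing notes, the tools were STAR 2.5.3a, Subread 1.6.2 with featureCounts, Trim Galore 0.4.2 and FastQC 0.11.5, in no stated order. The deposited files hold raw whole-number counts per gene, and per the file headers each holds 1 library. No genome build, annotation or strand setting is given in the sources used here. Of 17509 identifiers, 17389 matched the Ensembl annotation of assembly BDGP6.54, release 115, whose exonic lengths were used for levels per kilobase.

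Genes were filtered with filterByExpr (minimum count 10, minimum total 15) and tested with the quasi-likelihood test of edgeR 4.0.16 in R 4.3.3 (TMM, robust dispersion, group as the only term). CPM values use TMM-scaled library sizes. Standard errors are the size of the log2 fold change over the square root of F. All 6 libraries entered each fit, except the alternatives that left out 1 library. A gene was called at a BH-adjusted p under 0.05. DESeq2 1.42.0 and limma-voom (limma 3.58.1) were alternatives. The fit was also run on simulated counts with known changes. Each gene was drawn independently with the dispersion of the trend at its level, so this does not give the error rate in these data. Replicate pairs differed by more than counting noise (chi-square per degree of freedom 19.2 to 46.5). Of the 28 tested genes, 27 passed the filter in all 6 libraries and Gpa2 in 2 of each group.

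The members and lists were chosen with earlier results of these data known. In each pathway list, the 2 genes with the smallest p and the 2 with the highest level per kilobase are named. Of 19 other peptide genes listed, 18 were matched, and Nplp2 was not analysed here. Protein and promoter sequences were not used here.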

Additional observations from a re-analysis of the deposited data

How the results depend on the processing

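Under all 16 alternatives run (other scalings, filters, tests, thinning to the smallest total, the replicate block and leaving out each library), 0 of the peptide genes were called. Of the 28 tested, 15 kept the sign of their fitted difference throughout and 13 did not in at least 1 alternative. Ilp5 was at an unadjusted p under 0.05 in 8 of the 16, with BH-adjusted p from 0.520 to 1.00. For all genes, 32 were called higher and 4 lower. DESeq2 called 56 higher and 23 lower, and 1 other peptide pathway gene, Orcokinin, higher. With no filter on low counts 10 were lower. Leaving out 1 library gave 18 to 32 higher and 2 to 7 lower. With the replicate block, 24 were higher, 6 lower and 0 peptide genes called. Deviations from the group means correlated between same-numbered libraries at r = -0.056, 0.022 and 0.184 for numbers 1 to 3. Pairs with different numbers ran from r = -0.165 (deprived 2, replete 3) to 0.178 (deprived 2, replete 1). The numbers were therefore not taken to pair samples. The cause of these shifts was not tested. Depth limits Gpa2, Lk, Akh, CCAP and RYa.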
